A study of Mus musculus with 4 samples.

Results

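The expression of 10 semaphorin genes was followed across the cell classes, neuron subtypes and stages of the developing mouse superior colliculus, the midbrain structure that receives retinal and other sensory axons. They were the rows, of 31053 genes in the deposited matrix, whose symbols were Sema3a, Sema3c, Sema3d, Sema3e, Sema3f, Sema5a, Sema5b, Sema6a, Sema6d and Sema7a; all 10 were found, once each. Superior colliculus was taken from C57BL/6J mice with no further genotype or treatment in the labels, and nuclei were sequenced at embryonic day 19 (E19) and postnatal days 4, 8 and 21 (P4, P8 and P21). For the first stage the sample titles and stage labels say E19, while the design text says embryonic day 19 but puts the code E10 beside it; E19 is used here. Each stage was 1 library of tissue pooled from several animals, so no difference between stages could be checked against replicates, and no test was made.

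Semaphorins are secreted or membrane-bound signals that steer axons, dendrites and migrating cells, many of them by repulsion, and that also act on synapses and vessels. Plexins are their main receptors, and the secreted class 3 proteins (Sema3a to Sema3f among the 10) mostly bind a neuropilin, Nrp1 or Nrp2, that works together with a plexin A. Sema3e binds Plxnd1 directly. Class 5 and class 6 semaphorins are transmembrane proteins that signal through plexin A receptors and can also act as receptors themselves, while Sema7a is held in the membrane by a lipid anchor and binds Plxnc1 and beta-1 integrin.

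The 4 libraries held 2249 to 2585 nuclei each (9724 in all), with medians of 6828 to 11745 unique molecular identifiers (UMIs) per nucleus, lowest at E19 and highest at P21. The authors' annotation gave 9 classes and 35 subtypes. Neurons filled each library, with 682 to 1338 excitatory and 738 to 1088 inhibitory nuclei, while the other classes were small: 196 to 287 astrocytes, 47 to 306 nuclei of the oligodendrocyte lineage, 36 to 139 vascular leptomeningeal cells, and 10 to 40 nuclei each of dividing, endothelial, microglial and so-called epithelial cells. Levels below are UMIs of a gene per 1000000 UMIs of the class or subtype in a library (CPM), with exact Poisson 95% intervals that cover counting error only. Because each sum is a share, fewer UMIs of a gene and more of all others cannot be told apart. The markers of inhibitory neurons, microglia, leptomeningeal, endothelial and dividing cells were highest in their own class in all 4 libraries, as were 2 of 5 astrocyte and 3 of 7 oligodendrocyte lineage markers. None of the 3 excitatory markers was highest in its own class in all 4. Of these, Slc17a6 was so in 3 of 4, with microglia higher at P8. The class labelled epithelial lacked the 3 markers set for epithelial and ependymal cells together, and no other epithelial marker was set. Folr1 had no UMI in it and Foxj1 was at 7.39 CPM or less. Ttr was at 103 CPM in the P4 library and at 3.64 CPM or less in the others. The leading genes of the class were Slc47a1, Adamtsl3, Slc26a7 and Cdh1, the last with a mean of 420 CPM against 3.49 CPM in the other classes. The class is called by its label only. Ttr was at 72.6 to 662 CPM in every class of the P4 library, highest in astrocytes, and at 18.0 CPM or less in any class of the others; its part in the P4 values was not tested. Of the excitatory nuclei, 1258 (30.7%) held UMIs of both Slc17a6 and an inhibitory transmitter gene (Gad1, Gad2 or Slc32a1), as did 636 (18.4%) of the inhibitory nuclei. In the series 9 cell barcodes were shared by a pair of libraries.

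On GRCm38, with positions from GENCODE M21, 4 of the 10 genes lay on the same strand of chromosome 5, in this order: Sema3d (chr5:12383385-12588948, + strand), Sema3a (chr5:13125414-13602565, + strand), Sema3e (chr5:14025276-14256689, + strand) and Sema3c (chr5:17574281-17730268, + strand). The others were Sema6d (chr2:124089969-124667770, + strand), Sema7a (chr9:57940112-57962865, + strand), Sema3f (chr9:107681500-107710475, - strand), Sema5a (chr15:32244810-32696341, + strand) and Sema5b (chr16:35541145-35664732, + strand), with Sema6a placed further on. Sema3a, Sema3d and Sema3e overlapped predicted genes on their own strand, and 6 of the 10 overlapped a gene on the other strand. Reads were counted on a pre-mRNA reference, per the labels, so introns counted as well; whether strand was used is not stated there, and those genes could share UMIs.

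RefSeq promoters (GRCm38.p6) were taken for 8 of the 10 genes. The chromosome of Sema6a was left out of this search, and Sema3f was not matched. The 250 bases before the start site are shown for Sema3a and Sema3d, both on chromosome 5 and both high in the class labelled epithelial and in leptomeningeal cells, and for Sema5a, highest in committed oligodendrocytes. Capitals mark matches on either strand to CANNTG (the E-box core), ACAAAG (a core bound by Sox factors, CTTTGT on the other strand) and GGGCGG (the GC box, CCGCCC on the other strand). The RefSeq start of Sema3a lies inside the longer GENCODE gene.
Sema3a promoter, chr5:13396534-13396783, + strand: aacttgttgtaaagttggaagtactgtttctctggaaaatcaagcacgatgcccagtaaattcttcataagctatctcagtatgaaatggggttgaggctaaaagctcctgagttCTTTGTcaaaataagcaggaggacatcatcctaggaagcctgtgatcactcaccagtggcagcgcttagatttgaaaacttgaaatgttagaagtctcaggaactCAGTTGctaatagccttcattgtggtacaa
Sema3d promoter, chr5:12382916-12383165, + strand: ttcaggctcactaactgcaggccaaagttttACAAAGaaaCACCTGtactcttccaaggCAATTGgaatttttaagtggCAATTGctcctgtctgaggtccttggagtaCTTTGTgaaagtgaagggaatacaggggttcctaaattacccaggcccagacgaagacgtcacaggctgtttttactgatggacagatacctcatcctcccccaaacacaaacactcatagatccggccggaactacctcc
Sema5a promoter, chr15:32244563-32244812, + strand: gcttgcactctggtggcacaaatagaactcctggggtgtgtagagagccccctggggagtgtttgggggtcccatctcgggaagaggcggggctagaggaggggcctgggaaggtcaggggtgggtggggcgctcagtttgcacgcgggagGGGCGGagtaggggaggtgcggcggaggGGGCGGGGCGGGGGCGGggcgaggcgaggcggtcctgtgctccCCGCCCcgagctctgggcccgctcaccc
Sema3a held 1 E-box core and 1 ACAAAG match, and Sema3d held 3 E-box cores and 2 ACAAAG matches. Neither held a GC box. Sema5a held 5 GC boxes, some of which overlap, and neither of the other motifs. Among all 32851 promoters of the RefSeq table, 66.2% of the same windows held CANNTG, 16.5% held ACAAAG and 32.7% held GGGCGG, so none of the 3 is rare. The G and C content was 40.8% for Sema3a, 46.8% for Sema3d and 72% for Sema5a, against a median of 52.4% (quartiles 45.2% and 61.2%). A match describes the letters of the window and is not a binding site.

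Among the secreted members, Sema3a and Sema3d were mainly found outside the neurons. Sema3a, the classical growth cone collapsing signal, was at 776, 436, 931 and 1099 CPM at E19, P4, P8 and P21 in the class labelled epithelial, and at 500.1, 573, 449 and 863 CPM in vascular leptomeningeal cells, the fibroblast-like cells of the meninges and vessels. No other class passed 37.7 CPM in any library, so these 2 classes lay above all others at every stage, and their own order was the same in 3 of 4 libraries. Excitatory neurons held 29.7, 9.06, 5.38 and 2.88 CPM and inhibitory neurons 12.7, 4.38, 5.32 and 3.10 CPM. At P21 both stood beside astrocytes (3.69 CPM) and the oligodendrocyte lineage (2.55 CPM), and how many of such UMIs were free RNA was not tested.

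Sema3d, a secreted semaphorin studied in heart and vessel development, was also highest in the class labelled epithelial, at 339.5, 237, 302 and 699 CPM over the 4 stages. In leptomeningeal cells it was at 72.7, 65.0, 66.5 and 214 CPM: the first 3 libraries lay close together and P21 was higher than P4 by 3.29-fold (interval 2.25 to 4.94). It had a second site in the oligodendrocyte lineage, where precursors (OPC) held 36.7, 119, 133 and 280.5 CPM. Committed oligodendrocytes held 181 CPM at P8 and 245 CPM at P21, and myelinating oligodendrocytes, a subtype large enough only at P21, held 30.0 CPM. The P21 precursors and committed cells differed by less than their counting error, and both stood well above the myelinating cells, committed cells by 8.17-fold (interval 5.78 to 11.7). Endothelial cells had no Sema3d UMI in 3 of 4 libraries.

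Sema3c, which can attract as well as repel axons, was at 146, 103, 202 and 69.1 CPM in the class labelled epithelial. In leptomeningeal cells it was at 13.6, 26.4, 54.0 and 57.8 CPM. Endothelial cells gave 9.01, 30.6, 30.9 and 569 CPM, but 27 of the 42 UMIs at P21 came from 1 of 12 nuclei, so that last value is not a level of the class. Excitatory neurons held 36.8, 33.7, 33.6 and 19.5 CPM and inhibitory neurons 23.8, 28.5, 26.3 and 22.6 CPM, with the 2 classes overlapping over the stages.

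Sema3f had its highest class in excitatory neurons in all 4 libraries, and Sema3e lay near the same range. Sema3e was nearly level in excitatory neurons, at 31.3, 33.4, 33.7 and 33.1 CPM, and at 30.0, 25.2, 16.2 and 22.7 CPM in inhibitory neurons; endothelial cells gave 34.9 CPM at P4 and 108 CPM at P21, from 8 UMIs each time, of which 1 nucleus held 7 at P4 and 1 nucleus all 8 at P21. Its receptor Plxnd1 lay elsewhere: endothelial cells held 415, 175, 211 and 94.9 CPM of Plxnd1, against 2.55 CPM or less in either neuron class. Sema3f, which acts through Nrp2, was at 63.6, 44.8, 37.9 and 29.2 CPM in excitatory neurons and at 41.1, 31.9, 26.4 and 19.5 CPM in inhibitory neurons, a lower value at each later stage in both. Committed oligodendrocytes held no Sema3f UMI, which allows up to 14.3 CPM at P8 and 6.18 CPM at P21, and neither did the 187 myelinating nuclei, which allows up to 1.91 CPM.

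**Figure D1:**
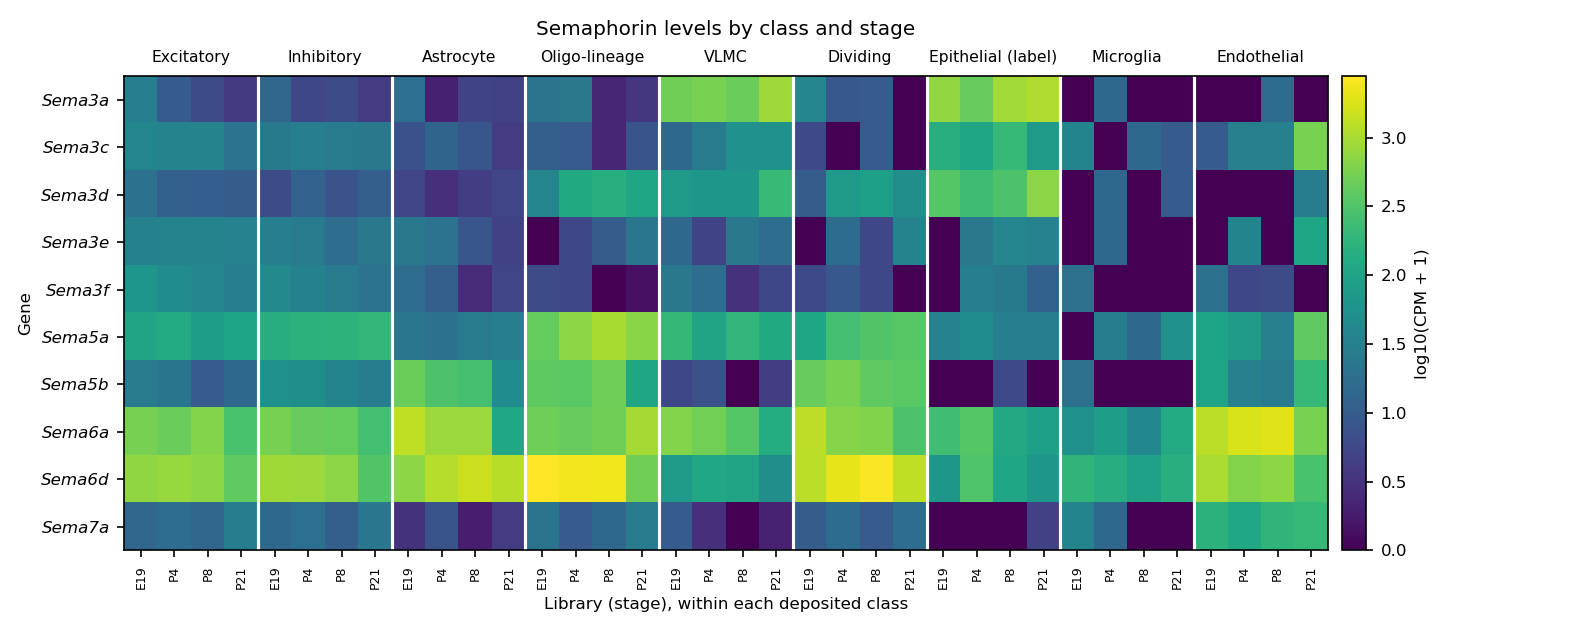
Levels of the 10 semaphorin genes (rows) in each deposited class and library (columns, 4 stages per class), as log10(CPM + 1) on a colour scale. Sema3a is brightest in vascular leptomeningeal cells (VLMC) and the class labelled epithelial, Sema3d in the latter, Sema5a and Sema6d in the oligodendrocyte lineage or dividing cells, and Sema7a in endothelial cells.

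The class 5 members were highest in glia and dividing cells. Sema5a, a transmembrane protein with thrombospondin repeats, was at 422, 726, 996 and 677 CPM in the oligodendrocyte lineage, and this was the highest class in all 4 libraries. Within the lineage it peaked in committed oligodendrocytes, at 1813 CPM at P8 and 2022 CPM at P21, against 414, 469.6, 649.8 and 578 CPM in precursors over the 4 stages. The committed cells were above the precursors of the same library by 2.79-fold (interval 2.40 to 3.24) at P8 and by 3.50-fold (interval 2.97 to 4.14) at P21. Myelinating oligodendrocytes held 279 CPM, lower than committed cells by 7.25-fold (interval 6.47 to 8.13). Inhibitory neurons held 138, 165, 168 and 191 CPM and excitatory neurons 101, 127, 85.1 and 100.0 CPM.

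Sema5b, the closest relative of Sema5a, was shared by precursor-like and astrocytic nuclei. Dividing cells, which also carried the precursor marker Pdgfra, held 438, 562, 399 and 366 CPM, and OPCs 399, 374, 427 and 477 CPM. Astrocytes held 469, 307, 266 and 46.1 CPM, with P21 far below the other libraries. Committed oligodendrocytes held 642 CPM at P8 and 235 CPM at P21, while the myelinating nuclei held 2 UMIs in all (1.28 CPM, interval 0.155 to 4.61). Sema5a and Sema5b thus parted at the P21 stage of the lineage: from precursors to committed cells Sema5a was higher and Sema5b lower by 2.03-fold (interval 1.58 to 2.63).

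Sema6a, a transmembrane ligand of Plxna2 and Plxna4, was found in every class; its gene lies at chr18:47235598-47368870, - strand. Endothelial cells held 1217, 1715, 1865 and 569 CPM, from 12 to 22 nuclei a library. When the 62 endothelial-class nuclei of all libraries were split by their marker UMIs, 39 nuclei with more endothelial markers held 905 Sema6a UMIs (1791 CPM, interval 1676 to 1911) and 23 with more pericyte markers held 27 UMIs (263 CPM, interval 173 to 383). Astrocytes held 1299, 834, 857 and 114 CPM and leptomeningeal cells 637, 508, 347 and 134 CPM, each lowest at P21. Excitatory neurons held 546, 459, 637 and 286 CPM and inhibitory neurons 552, 445, 431 and 263 CPM, also lowest at P21. The oligodendrocyte lineage went the other way, at 489, 440.2, 492 and 969 CPM.

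Sema6d, a transmembrane ligand of Plxna1 and Plxna4, was at 2875, 2574, 2691 and 1416 CPM in precursors, at 1226, 2101, 2635 and 1315 CPM in dividing cells and at 731, 1169.5, 1459 and 1196 CPM in astrocytes. The oligodendrocyte lineage was the highest class at E19 and P4, and dividing cells at P8 and P21. Committed oligodendrocytes held 1470.3 CPM at P8 and 360.3 CPM at P21, and myelinating cells 374 CPM. Excitatory neurons held 753, 827, 735 and 407 CPM and inhibitory neurons 911, 875, 699 and 322 CPM, near each other in every library. Leptomeningeal cells stayed at 116 CPM or less.

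Sema7a, the lipid-anchored member, was highest in endothelial cells, at 162, 113, 180.3 and 203 CPM from 18, 26, 35 and 15 UMIs. Of these 94 UMIs, 93 lay in the 39 nuclei with more endothelial than pericyte markers. Excitatory neurons held 12.7, 16.6, 12.7 and 27.5 CPM and inhibitory neurons 13.4, 16.9, 10.0 and 21.4 CPM, with P21 the highest library in both. Astrocytes held 6.93 CPM or less and leptomeningeal cells 9.09 CPM or less.

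Between E19 and P21 the semaphorins of neurons were on balance lower at the later stage. A member was counted when its log2 ratio of CPM + 5 was 1 or more, or -1 or less, with at least 20 CPM in the higher library. This scale understates the difference of low genes. In excitatory neurons 9 of 10 members reached 20 CPM, none was counted as higher and 2 as lower, Sema3a (log2 ratio -2.14) and Sema3f (-1.002). By the same rule 16.0% of 7650 genes were counted in either direction and 10.7% as lower, and with 9 genes a count of 2 is not read as a result about the members. The median log2 ratio of the 9 was -0.79, against -0.06 over all genes. Sema6a (-0.92) and Sema6d (-0.88) lay just short of the threshold, and Sema7a was the member farthest above 0 (0.87). Its CPM were higher at P21 by 2.15-fold (interval 1.78 to 2.62), past 2-fold before the 5 CPM were added. Sema3a was lower by 10.3-fold (interval 7.47 to 14.6) and Sema3f by 2.17-fold (interval 1.93 to 2.46); Sema3f sat on the threshold and was at -0.89 with median-of-ratios scaling. Step by step, 1 member was counted from E19 to P4 (Sema3a, against 1.17% of all genes), none over the next step, to P8 (1.19%) and 1 from P8 to P21 (Sema6a, against 5.35%), all lower at the later stage.

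In inhibitory neurons 8 members reached 20 CPM, none was counted as higher and 2 as lower, Sema6d (-1.49) and Sema6a (-1.05). Of all genes 17.2% were counted in either direction and 11.3% as lower. With 8 genes a count of 2 is again not read as a result about the members. The median of the 8 was -0.58, against -0.04 over all genes. Sema3f had nearly the same ratio as in excitatory neurons (-0.91), Sema7a (0.52) and Sema5a (0.46) lay above 0, and Sema3c (-0.06) lay near it. Sema6d was lower by 2.83-fold (interval 2.72 to 2.96) and Sema6a by 2.10-fold, but Sema6a lay short of the threshold, at -0.94, with median-of-ratios scaling. Whether the neuron classes differ in these ratios was not tested.

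**Figure D2:**
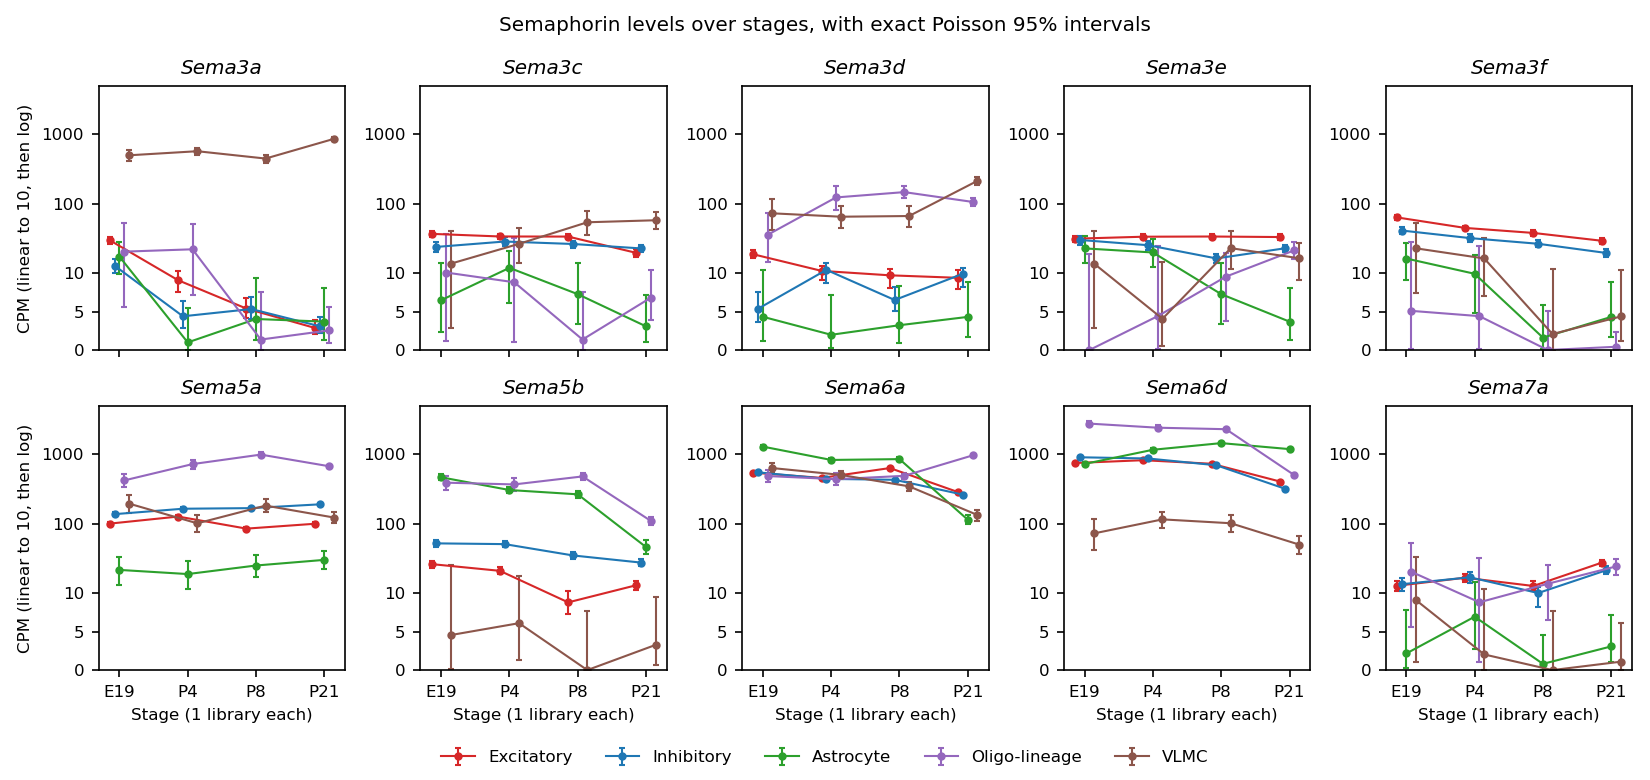
Level of each semaphorin gene (panels) at the 4 stages in 5 classes (colours), in CPM on an axis that is linear to 10 and logarithmic above; points are 1 library each and bars are exact Poisson 95% intervals. Sema6a is lowest at P21 in neurons, astrocytes and leptomeningeal cells (VLMC) and highest there in the oligodendrocyte lineage, and Sema3a lies far above the other 4 classes in leptomeningeal cells.

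Since neuron subtypes make up different shares of each library, the same ratios were read within the subtypes that had 20 or more nuclei in both libraries (11 excitatory, named EN, and 12 inhibitory, named IN). From E19 to P21, Sema3f and Sema6a were lower in all 11 EN subtypes, as were 17.6% of all genes. Sema6a and Sema6d were lower in all 12 IN subtypes, as were 14.9% of all genes. Sema6d was lower in 9 of 11 EN subtypes, with a log2 ratio of 1.40 in EN6 at the other end. Sema3c was lower in 10 of 11 EN subtypes, and at least 10 of 11 were lower for 26.0% of genes. Sema7a was higher in 10 of 11 EN subtypes, against 20.5% of genes, and in 10 of 12 IN subtypes. From P8 to P21 it was higher in all 11 EN subtypes (12.5% of genes) and in 11 of 12 IN subtypes (20.3%). The class value of Sema3a rested largely on 1 subtype, and with subtypes weighted alike its log2 ratio was -1.39: EN2 held 210 of the 342 excitatory UMIs at E19, its level was 98.9, 23.3, 4.01 and 2.70 CPM over the stages, and its nuclei numbered 287, 107, 44 and 36. Sema5a had a level class value (-0.01) over spread subtypes, from -1.39 in EN8 to 4.26 in EN5, and with subtypes weighted alike it was 0.71.

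In astrocytes, 5 members reached 20 CPM between E19 and P21, none was counted as higher and 3 as lower, against 26.8% of all genes in either direction. Sema6a was lower at P21 by 11.4-fold (interval 9.72 to 13.3) and Sema5b by 10.2-fold (interval 7.93 to 13.2). The third was Sema3e, at 22.7 CPM from 21 UMIs at E19 and 3.69 CPM from 6 UMIs at P21. Sema6d lay above 0 with a log2 ratio of 0.71. The median of the 5 was -1.67, against -0.24 over all genes.

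The astrocyte subtypes parted in Sema6d. Protoplasmic astrocytes held 775, 1264, 1380.4 and 1001 CPM over the stages and fibrous astrocytes 562, 842, 1821 and 2395 CPM. Fibrous cells were thus the lower subtype at E19 and P4 and the higher one at P8 and P21, by 2.39-fold (interval 2.16 to 2.64) at P21, where 23.8% of all genes were counted. Sema6a was at 1414, 996, 903 and 101 CPM in protoplasmic and 856, 270.3, 645 and 194 CPM in fibrous astrocytes, so its order turned as well. At P4, 6 members reached 20 CPM, with 2 counted as lower and 2 as higher in fibrous cells. The lower ones were Sema5b, by 4.96-fold (interval 3.04 to 8.63) and Sema6a, by 3.68-fold (interval 2.84 to 4.86). The higher ones were Sema3e, from 12 against 8 UMIs (log2 ratio 1.94), and Sema3f, from 6 against 4 UMIs (1.64). Of all genes 26.6% were counted there in either direction. The fibrous subtype had 41 to 55 nuclei a library.

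**Figure D3:**
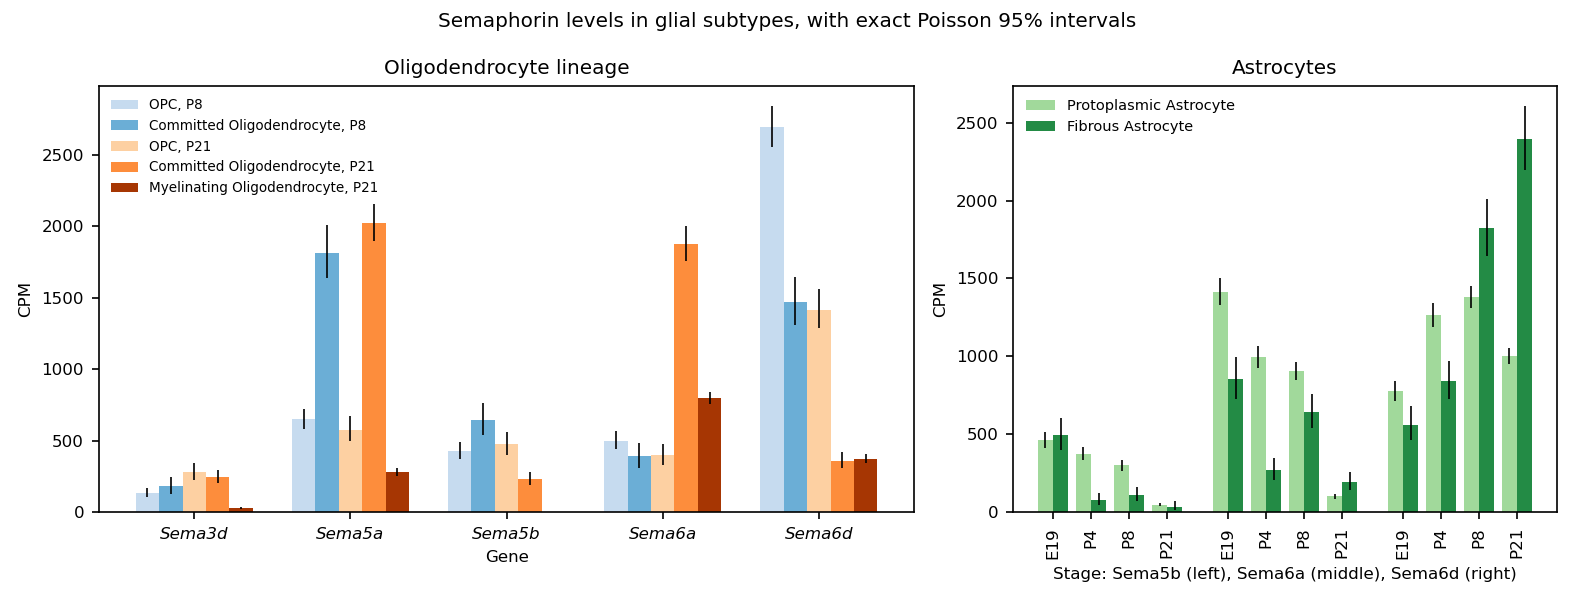
Levels of 5 semaphorin genes in oligodendrocyte lineage subtypes at P8 and P21 (left) and of 3 in astrocyte subtypes at the 4 stages (right), in CPM; each bar is 1 library and error bars are exact Poisson 95% intervals. Sema5a is highest in committed oligodendrocytes in both libraries, Sema6a in the same subtype at P21 but not at P8, and Sema6d is higher in fibrous than in protoplasmic astrocytes at P8 and P21.

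The oligodendrocyte lineage differed in make-up between libraries, from 42 OPCs of 54 nuclei at P4 to 187 myelinating and 64 OPC nuclei of 306 at P21, so class ratios were set beside the subtypes. From P4 to P21, 8 members reached 20 CPM, with 3 counted as higher and 3 as lower, against 39.3% of all genes. Sema6a was higher by 2.20-fold (interval 1.80 to 2.72). Sema3e and Sema7a were also counted, but their P4 values rested on 1 and 2 UMIs and both fold intervals reached below 1. Sema6d was lower by 4.83-fold (interval 4.36 to 5.35), Sema5b by 3.36-fold (interval 2.59 to 4.31), and Sema3a came from 5 UMIs at P4 to 6 at P21. The median of the 8 was -0.15, against -0.32 over all genes.

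Within precursors Sema6a, Sema6d and Sema5b differed less between these libraries than in the class, and Sema3d differed more, as the precursor levels given above show. OPCs held 422 CPM of Sema6a at P4 and 397 CPM at P21, while the higher levels at P21 were those of committed cells (1875 CPM, after 390.2 CPM at P8) and myelinating cells (798 CPM). At P21, committed cells were above OPCs in Sema6a by 4.72-fold (interval 3.90 to 5.76), in Sema5a as given above and in Sema3e, with 40 against 6 UMIs. They were below OPCs in Sema6d by 3.93-fold (interval 3.29 to 4.71), in Sema5b and in Sema7a, the last from 2 against 6 UMIs with a fold interval that included 1. In all, of 7 members that reached 20 CPM, 3 were counted as higher and 3 as lower, where 38.0% of all genes were counted. At P8 only Sema5a was counted, of 5 members that reached 20 CPM, where 25.9% of all genes were. From committed to myelinating cells at P21, 7 members reached 20 CPM. Of these, 5 were lower (Sema3d, Sema3e, Sema5a, Sema5b and Sema6a) and 1 higher, Sema7a, at 31.3 CPM from 49 UMIs. Of all genes 21.8% were counted there.

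In leptomeningeal cells 6 members reached 20 CPM between P4 and P21, with 1 counted as higher and 2 as lower, against 16.1% of all genes in either direction. Sema3d was the higher one (log2 ratio 1.64), with Sema3c at the threshold (26.4 and 57.8 CPM) and Sema3a at 0.59. The transmembrane Sema6a (-1.88) and Sema6d (-1.13) were lower. The 3 secreted members among the 6 lay above 0, Sema5a near it (0.27) and both class 6 members below it. Of the secreted members under 20 CPM, Sema3e lay above 0 (1.24, from 2 and 15 UMIs). Sema3f lay below 0 (-1.18, from 8 and 4 UMIs). The median of the 6 was 0.43, against -0.19 over all genes.

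Within a library, inhibitory and excitatory neurons could be set against each other at the same stage. Of the 7 members with 20 CPM or more in every library, none lay 2-fold or more to one side in all 4, against 1.13% of 6219 genes. Without the size limit, 4 of 7 kept their side in all 4 libraries, as did 3045 of 6219 genes. Sema5b lay on the inhibitory side, with log2 ratios of inhibitory over excitatory neurons of 0.87, 1.11, 1.53 and 0.85 at E19, P4, P8 and P21. Sema5a lay on the same side, at 0.43, 0.36, 0.94 and 0.90. Sema3f lay on the excitatory side, at -0.57, -0.43, -0.45 and -0.48, and so did Sema3e, at -0.05, -0.35, -0.86 and -0.46, where the E19 fold interval included 1. Sema6a, Sema6d and Sema3c had no constant side.

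Each member was then placed among the neuron subtypes. Subtypes were ranked by their mean over the libraries in which they had 20 or more nuclei, so means are over libraries and not over nuclei. Sema5b was highest in IN8 in each of the 4 libraries, at 126, 127, 139 and 104 CPM. Its mean there was 124 ± 14.7 CPM, SD, n = 4 libraries, where the SD is over stages and not over replicates, and it was the only member whose highest subtype had a range over libraries that did not overlap that of the next one, IN1 (75.7 ± 15.6 CPM, SD, n = 4 libraries). Sema6a was highest in EN6 in each library, at 1402, 1503, 1843 and 883 CPM, and EN5 came next by mean, at 1295, 1105, 1215 and 700.1 CPM. These ranges over stages overlapped, though EN6 exceeded EN5 in all 4 libraries.

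Sema3f was highest in EN2 by mean, at 113, 61.9, 57.5 and 63.5 CPM, before EN8 (54.9 ± 10.9 CPM, SD, n = 4 libraries). EN2 was also the highest subtype for Sema3a, at E19 and P4 only. Sema3e was highest in EN12, at 98.0, 163, 84.6 and 110.2 CPM, before IN6, at 46.4, 81.8, 83.7 and 132 CPM, and IN6 was the higher of the pair at P21. Sema5a was highest in IN9, at 370.2, 501, 278 and 612 CPM, before IN6, at 123, 213, 332 and 607 CPM, where each later library was higher. IN9 and IN6 were level at P21.

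No subtype stood out for Sema3c: IN7 (57.5 ± 17.8 CPM, SD, n = 4 libraries) and EN8 (55.8 ± 14.6 CPM, SD, n = 4 libraries) led with ranges that overlapped. By mean, Sema3d was highest in EN11, which had enough nuclei only at E19 and P4 (40.7 and 27.3 CPM). EN1 came next, at 30.1, 18.8, 27.9 and 18.5 CPM. In single libraries the highest for Sema3d was EN11 at E19, IN4 at P4 (31.0 CPM), EN1 at P8 and IN10 at P21 (55.2 CPM). By mean, Sema6d was led by EN8 (1203 ± 370.4 CPM, SD, n = 4 libraries) and EN7 (1191 ± 74.6 CPM, SD, n = 2 libraries), within their spread. In single libraries its highest subtype was IN12 at E19 (1604 CPM) and P8 (1304 CPM), EN8 at P4 and EN5 at P21 (888 CPM). Sema7a was the flattest of the 10, with IN9 (27.5 ± 10.9 CPM, SD, n = 4 libraries) and EN13 (27.2 ± 12.8 CPM, SD, n = 4 libraries) first and a highest subtype 1.69 times the median subtype, against 8.15 times for Sema3a and 8.05 times for Sema5b. At P21 it was highest in EN6, at 68.0 CPM, after 9.91, 18.1 and 8.68 CPM in the earlier libraries. EN6, the highest subtype for Sema6a, was also the highest by mean for the receptor Nrp2, at 991, 618, 659 and 389 CPM.

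**Figure D4:**
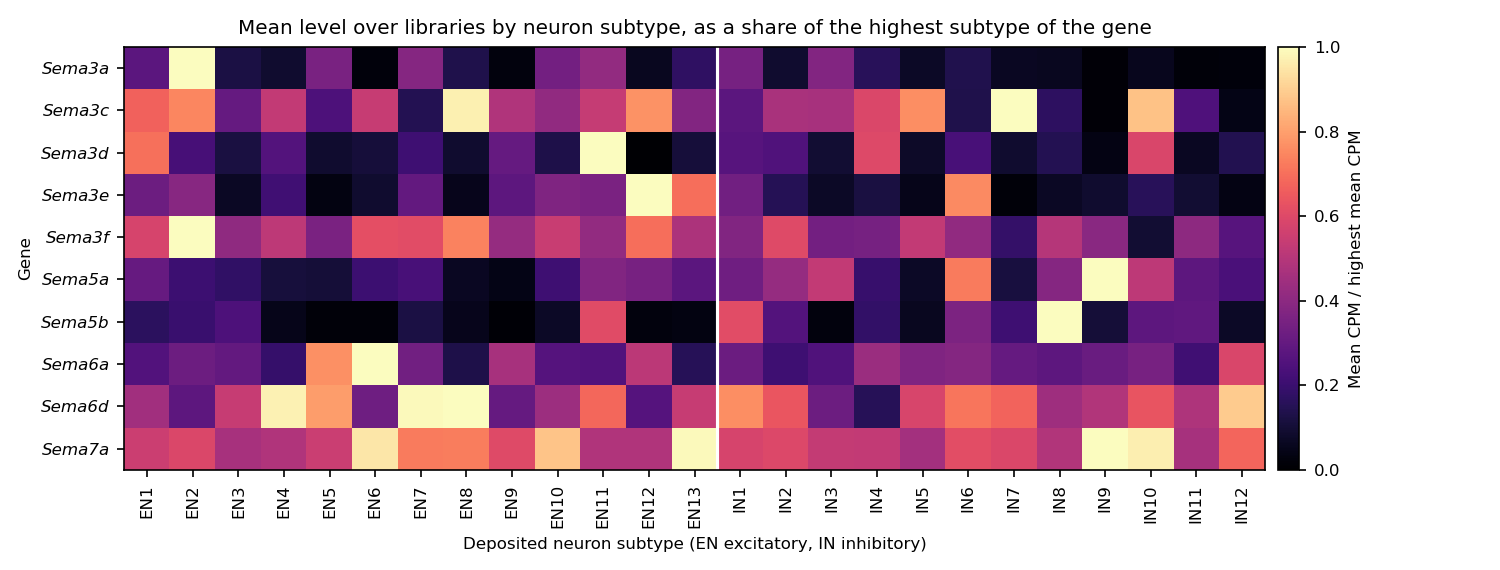
Mean level over libraries of each semaphorin gene (rows) in the 13 excitatory (EN) and 12 inhibitory (IN) neuron subtypes (columns), as a share of the highest subtype of the same gene on a colour scale from 0 to 1. Sema3a peaks in EN2, Sema5b in IN8, Sema6a in EN6 and Sema3e in EN12, while Sema6d and Sema7a are spread over many subtypes.

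Receptor genes were read in the same way. Of 13 receptor genes, 11 reached 20 CPM in excitatory neurons between E19 and P21, none was counted as higher and 7 as lower (Nrp1, Plxna1, Plxna3, Plxnb1, Plxnb2, Plxnc1 and L1cam), with a median log2 ratio of -1.09 against -0.79 for the 9 members at that level. Among all genes 16.0% were counted in either direction and 10.7% as lower. In inhibitory neurons 6 of 11 were counted as lower, against 11.3% of all genes, and the median was -1.06. Plxnc1, the plexin of Sema7a, was at 135, 119, 111 and 44.2 CPM in excitatory neurons, where Sema7a was highest at P21. Nrp1, the main partner of Sema3a, was at 345, 283, 357 and 163 CPM there, and Nrp2, the partner of Sema3f, at 139, 139, 197 and 124 CPM. Plxna4, which serves Sema3a and the class 6 members, was at 518, 519, 445 and 400.3 CPM. Plxnb3 was the reverse case in the oligodendrocyte lineage, at 56.0, 79.2, 105 and 241 CPM, and its highest subtype was committed oligodendrocytes (276 CPM at P8 and 424 CPM at P21), as for Sema5a. In leptomeningeal cells Plxna2 (1.37) and Plxna4 (1.55) were higher at P21 than at P4, while their ligand Sema6a was lower.

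The other semaphorin genes gave a comparison outside the 10. Of 10 such genes, 8 reached 20 CPM in excitatory neurons and 1, Sema4c, was counted as lower at P21 (-1.37), with a median of -0.50. In inhibitory neurons Sema4c was again the only one of 8 (-1.65), with a median of -0.39. With 10.7% and 11.3% of all genes counted as lower in these classes, 1 of 8 is near the background. Sema4a was higher at P21 in astrocytes, at 39.9, 34.7, 60.5 and 102 CPM, and Sema4d, an inhibitor of axon growth known from oligodendrocytes, was at 30.5, 149.7, 185 and 559 CPM in the lineage. Sema4b (58.3, 61.4, 79.0 and 93.5 CPM in astrocytes), Sema4g (74.3, 84.4, 86.0 and 61.1 CPM in inhibitory neurons) and Sema4f (56.1 CPM in the P21 oligodendrocyte lineage) also passed 50 CPM. The peaks of Sema3g and Sema6c, in endothelial cells, rested on 10 and 4 UMIs. Of 22 downstream genes (CRMP, MICAL, FARP and actin regulators), 18 reached 20 CPM in each neuron class. In excitatory neurons 1 was counted as higher and 4 as lower, and in inhibitory neurons 1 and 5, against 16.0% and 17.2% of all genes in either direction. The median log2 ratio of these genes was -0.60 in each class, so lower values at P21 were not particular to the semaphorins. In both classes the highest ratio was that of Mical2, a flavoprotein that takes apart actin filaments (2.07 and 3.00), and the lowest that of Cfl1, cofilin (-2.60 and -2.63).

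The genes whose profile was most like that of each member were found by Pearson's r of log levels. Over 96 profiles of neuron subtype and library (11432 genes), the closest were Dner for Sema6a (r = 0.69), Cdh23 for Sema5b (r = 0.66), Tuba4a for Sema7a (r = 0.65) and Cdh22 for Sema5a (r = 0.64), and the lowest best match was that of Sema3d (r = 0.45). Over 36 profiles of class and library (13738 genes) they were Efemp1 for Sema3a (r = 0.94), Ncald for Sema6d (r = 0.90), Sox5 for Sema5b (r = 0.88), Ptprb for Sema7a (r = 0.85) and Bmp4 for Sema3d (r = 0.84). Among the members themselves, Sema5b with Sema6d (r = 0.85) and Sema3a with Sema3d (r = 0.72) had the highest values over classes, and Sema3a with Sema6d the lowest (r = -0.61). Over the 96 neuron profiles the same pairs, in this order, had r = 0.16, r = 0.24 and r = 0.11. These values describe profiles that share libraries and depths.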

How the data were processed

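Nuclei of superior colliculus were sequenced with the 10x Genomics 3′ v3 kit, with a target of 2000 nuclei per sample, per the labels. Per the submitters' processing notes, Cell Ranger 3.0.2 and the mm10 build were used, and per the labels the reference was built for pre-mRNA, so intronic reads were counted. The authors deposited UMI counts per gene and nucleus, not normalised, with a class, a subtype and a stage for each nucleus, which were used as given. How nuclei were filtered, doublets removed, classes named and strand used is not given in the sources used here. As deposited, the authors' table also held the percent of mitochondrial UMIs per nucleus, at most 5%. No nucleus was removed here. A further 7 columns of values per nucleus in the authors' table were not used.

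The per-nucleus totals recomputed from the counts equalled the deposited ones in all 9724 nuclei. Counts were summed per library and class or subtype (20 or more nuclei) and scaled to CPM in Python 3.11.15 (numpy 2.4.6, scipy 1.17.1 and pandas 2.3.3). Log2 ratios had 5 CPM added, and a call needed 2-fold and 20 CPM. Intervals on levels are exact Poisson intervals and intervals on folds are exact binomial (Clopper-Pearson) intervals, at 95%; a count of 0 was given a limit of 3 UMIs per library and group. UMIs of 1 nucleus are not independent, so intervals cover counting error only. The calls were tried on simulated counts with known folds well past 2-fold, in genes well above 20 CPM and with Poisson noise only. Calls near 2-fold or 20 CPM, and UMIs gathered in 1 nucleus, were not tested in this way. All 10 members are named; other semaphorins are named when their highest class reached 50 CPM, receptors beside their ligand, subtypes when highest or second or at an end of a range, downstream genes when their ratio was the highest or lowest, and like genes as the best match. The members, lists and rules were chosen with earlier results of these data known. The split of endothelial nuclei by markers was chosen after their values were seen. Alternatives were another pseudocount, scaling, filter, weighting of nuclei or subtypes, thinning to 2300 UMIs and leaving out nuclei.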

Additional observations from a re-analysis of the deposited data

Results flagged for a closer look

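From P4 to P21, Sema6a had ratios of opposite sign in glia and leptomeningeal cells. Its log2 ratio was 1.13 in the oligodendrocyte lineage, -2.81 in astrocytes and -1.88 in vascular leptomeningeal cells, which drew attention because the sign differed between classes. Each value is 1 library against 1 library, and the difference between the classes was not tested. In the lineage, precursors held 422 CPM at P4 and 397 CPM at P21, while 187 of 306 nuclei at P21 were myelinating oligodendrocytes, a subtype with too few nuclei at the other stages; the part of this make-up in the lineage value was not tested.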

How the results depend on the processing

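Each stage had 1 library, so leaving out a replicate was not possible. No paired analysis was possible because no stage has more than 1 library. Under the alternatives, the log2 ratios of single members gave 693 values. A value was called the same when it lay inside the counting interval of the main ratio, taken with no CPM added. It was also called the same when its shift was at most 50% of the width of that interval. By this rule 602 were the same and 91 moved. The sign turned in 24 of the 693, over 16 ratios, each at 0.83 or less in size and none past 2-fold in the main analysis. The largest turns were those of Sema5a between fibrous and protoplasmic astrocytes at P4 (0.83, and -0.37 when thinned), Sema3d between P4 and P21 in the oligodendrocyte lineage (-0.20, and 0.84 when thinned), Sema3e in inhibitory neurons from E19 to P21 (-0.34, and 0.41 with subtypes weighted alike) and Sema5a in excitatory neurons between the same stages (-0.01, and 0.71 with subtypes weighted alike). With 20 CPM added, the count of members past 2-fold went from 2 to 1 in excitatory neurons and from 6 to 3 in the oligodendrocyte lineage. Median-of-ratios scaling divides the later library by the median ratio of genes with UMIs in both libraries. Ratios rise where the log2 median is below 0. That median was -0.13 in excitatory neurons, -0.12 in inhibitory neurons, -0.31 in astrocytes, -0.54 in the oligodendrocyte lineage and -0.27 in leptomeningeal cells. With this scaling the count of members past 2-fold was 1 in place of 2 in each neuron class. Without nuclei that held UMIs of both transmitter sets it was 1 in excitatory neurons, and with subtypes weighted alike it was 1 in inhibitory neurons. With a minimum of 100 CPM it was 0 in excitatory neurons and 3 in the oligodendrocyte lineage. With no filter on low values it was 5 in astrocytes and 5 in leptomeningeal cells, each in place of 3. Without the nucleus with most UMIs of the member, an alternative chosen after seeing the data, it was 2, 2, 2, 4 and 2 in the 5 classes in the order above. The Sema6a ratio in the oligodendrocyte lineage ranged from 0.97, with each nucleus weighted alike, to 1.66, with median-of-ratios scaling. The Sema3a ratio in excitatory neurons was -1.58 with nuclei thinned to 2300 UMIs and -1.39 with subtypes weighted alike. The highest neuron subtype was the same for 6 of 10 members without nuclei of both transmitter sets (Sema3c, Sema3d, Sema6d and Sema7a differed), for 7 with a minimum of 50 nuclei and for 8 with nuclei weighted alike. The cause of these shifts was not tested. The count of 0 members 2-fold apart between neuron classes in all 4 libraries stood under its 5 alternatives. Depth limits the small classes most: an endothelial or microglial sum of a library held 12 to 33 nuclei.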
